A study of Mus musculus with 8 samples.

Results

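The 32 genes described here encode proteins of G2 phase and mitosis, from the cyclins that start cell division to the scaffold that ends it. They were listed by name, with earlier results of these data known. Each symbol matched 1 of the 31054 genes and tags counted in each library. The 4 libraries came from mouse bone marrow read by droplet single-cell RNA sequencing, in which each captured RNA molecule is counted once as a unique molecular identifier (UMI) near its 3′ end. Donor marrow from 8-week-old Gli1 knockout (Gli1-/-) or wild type mice carried a JAK2V617F or a control JAK2WT retrovirus and was transplanted into female B6.SJL recipients aged 8 to 10 weeks and irradiated with 10.5 Gy. The 4 groups were Gli1 knockout JAK2V617F, Gli1 knockout JAK2WT, wild type JAK2V617F and wild type JAK2WT, each taken 112 days after transplant. Each library pooled 3 mice after magnetic removal of mature cells (by CD3, B220, TER119, GR1 and CD11b) and a sort for viable lineage-negative cells with and without GFP, so each group is 1 library here. The hashing tags that tie cells to mice were not used, so no spread between mice is given. Gli1 is a transcription factor of the Hedgehog pathway, and JAK2V617F is a constantly active form of a cytokine receptor kinase that drives myeloproliferative disease. The knockout is of the donor cells, while cells of the irradiated host may remain in the marrow.

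Cells prepare for division in G2 by making the proteins that condense chromosomes, build the spindle and later cleave the cell. Their genes are held silent in resting cells and in G1 by the DREAM complex, and are switched on from late S phase by the MMB complex and FOXM1, many of them through a short promoter element called the cell cycle genes homology region, with nearby CCAAT boxes bound by NF-Y. The mRNAs therefore peak together in cells about to divide, and in marrow they mark dividing progenitors and precursors.

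That element (TTTGAA) and the CCAAT box were looked for on both strands of RefSeq promoters of build GRCm38.p6, which run from 250 bases before to 50 bases after each gene start. A promoter was found for 27 of the 32 genes. TTTGAA occurred in 21 of these 27 promoters (77.8%), against 5466 of 27025 genes in all (20.2%). CCAAT occurred in 21 of the 27 (77.8%), against 11096 genes in all (41.1%). Both stood in the same promoter in 18 of the 27 (66.7%), against 2425 genes in all (8.97%). A match of letters is a description and shows no binding. The 250 bases before the start are shown, 5′ to 3′ on the gene's strand, for the 4 genes with the most UMIs among those with a promoter. Capitals mark every TTTGAA and CCAAT on either strand, and where matches overlap both were counted.
Top2a (chr11:99024190-99024439, minus strand): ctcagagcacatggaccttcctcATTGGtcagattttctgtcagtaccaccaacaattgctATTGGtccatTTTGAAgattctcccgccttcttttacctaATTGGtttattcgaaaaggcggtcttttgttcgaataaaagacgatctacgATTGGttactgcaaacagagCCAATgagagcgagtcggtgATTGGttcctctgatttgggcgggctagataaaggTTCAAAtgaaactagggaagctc
Mki67 (chr7:135716380-135716629, minus strand): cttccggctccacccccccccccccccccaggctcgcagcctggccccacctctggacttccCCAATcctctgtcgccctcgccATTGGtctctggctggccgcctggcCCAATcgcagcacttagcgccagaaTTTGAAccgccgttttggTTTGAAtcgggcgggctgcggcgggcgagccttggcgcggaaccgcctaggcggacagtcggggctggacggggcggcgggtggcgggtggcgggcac
Ube2c (chr2:164769679-164769928, plus strand): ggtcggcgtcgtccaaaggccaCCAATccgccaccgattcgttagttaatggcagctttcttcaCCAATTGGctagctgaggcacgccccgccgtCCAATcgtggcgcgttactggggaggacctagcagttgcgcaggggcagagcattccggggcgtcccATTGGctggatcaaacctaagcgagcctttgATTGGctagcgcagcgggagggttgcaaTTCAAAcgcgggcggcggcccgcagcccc
Birc5 (chr11:117848987-117849236, plus strand): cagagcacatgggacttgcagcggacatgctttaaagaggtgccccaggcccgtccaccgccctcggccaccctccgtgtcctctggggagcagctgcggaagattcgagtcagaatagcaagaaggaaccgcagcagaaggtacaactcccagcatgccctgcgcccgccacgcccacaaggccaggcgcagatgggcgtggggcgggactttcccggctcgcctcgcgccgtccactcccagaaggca
Top2a held 2 TTTGAA and 6 CCAAT matches in this stretch, Mki67 held 2 and 3, and Ube2c held 1 and 6. Birc5 had neither in these letters.

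The cells analysed passed 3 limits, namely 500 detected genes, 1000 UMIs and less than 10% mitochondrial UMIs, and were not scored as doublets. They numbered 6035 in the Gli1 knockout JAK2V617F library, 3770 in Gli1 knockout JAK2WT, 3432 in wild type JAK2V617F and 7196 in wild type JAK2WT, or 20433 in all. Their median depth was 13337 UMIs in Gli1 knockout JAK2V617F, 16946 in Gli1 knockout JAK2WT, 12866 in wild type JAK2V617F and 3774 in wild type JAK2WT, the shallowest library. Between pairs of libraries, 115 barcodes were shared, of which 47 were among the cells kept. Gli1 itself had 1 UMI in Gli1 knockout JAK2V617F, 0 in Gli1 knockout JAK2WT, 2 in wild type JAK2V617F and 0 in wild type JAK2WT cells, so the labelled knockout could not be checked. Xist, expressed in female cells, had 229 UMIs in Gli1 knockout JAK2V617F, 824 in Gli1 knockout JAK2WT, 35858 in wild type JAK2V617F and 70513 in wild type JAK2WT cells. Y-linked genes had 11471 UMIs in Gli1 knockout JAK2V617F, 8860 in Gli1 knockout JAK2WT, 1 in wild type JAK2V617F and 1 in wild type JAK2WT cells. Sex and Gli1 genotype therefore differ together in every comparison of genotypes given here, and cannot be told apart.

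Over all kept cells the 32 genes took 245505 UMIs in Gli1 knockout JAK2V617F, 227508 in Gli1 knockout JAK2WT, 193048 in wild type JAK2V617F and 161407 in wild type JAK2WT cells. As counts per 1000000 UMIs (CPM) their summed level was 2518 in Gli1 knockout JAK2V617F, 3196 in Gli1 knockout JAK2WT, 3813 in wild type JAK2V617F and 3089 in wild type JAK2WT. Fewer dividing cells and less of these mRNAs per dividing cell cannot be told apart in such sums. A UMI count near the 3′ end does not depend on gene length in the way a read count does, but capture can differ between genes. Top2a, the topoisomerase that untangles sister chromosomes, had the most UMIs (103426), before Mki67 (77224), which coats mitotic chromosomes, and Ube2c (68861), a ubiquitin-conjugating enzyme of the anaphase-promoting complex. Birc5 followed with 55407 UMIs. Kif2c (5415 UMIs), a kinesin that takes microtubules apart, and Pimreg (5427 UMIs) had the fewest.

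Cells were grouped by the marker genes of their clusters, and a class is called by a cell type with "-like" because the name is rebuilt from markers. Cell cycle genes were left out of the clustering. Of 35 clusters, 26 could be named, and the unnamed ones held 35.6% of the cells. The summed level of the 32 genes differed widely between classes. In erythroid-like cells it was 5703 CPM in Gli1 knockout JAK2V617F (44 cells), 4869.6 in Gli1 knockout JAK2WT (53 cells), 6132 in wild type JAK2V617F (1245 cells) and 3943 in wild type JAK2WT (60 cells). In monocyte-like cells it was 5792 CPM in Gli1 knockout JAK2V617F (137 cells), 6755 in Gli1 knockout JAK2WT (223 cells), 4976 in wild type JAK2V617F (28 cells) and 5252 in wild type JAK2WT (772 cells). B lineage-like cells had 5103 CPM in Gli1 knockout JAK2V617F (45 cells), 16755 in Gli1 knockout JAK2WT (3 cells), 1762 in wild type JAK2V617F (6 cells) and 5979 in wild type JAK2WT (719 cells). In wild type JAK2WT the B lineage-like value lay above the erythroid-like and monocyte-like ones. Several of these pools hold few cells. Plasma cell-like cells, which have left the cell cycle, had 159 CPM in Gli1 knockout JAK2V617F, 85.7 in Gli1 knockout JAK2WT, 689 in wild type JAK2V617F and 266 in wild type JAK2WT. In wild type JAK2V617F this value lay above those of group 2 innate lymphoid-like (397 CPM) and NK-like cells (325 CPM). The plasma cell-like values are set below beside those of other classes. Immunoglobulin genes are among the leading genes of these cells and add to their totals, which lowers the CPM of other genes. The values are therefore no measure of free RNA in other classes. Whether some plasma cell-like cells were dividing was not tested.

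**Figure D1:**
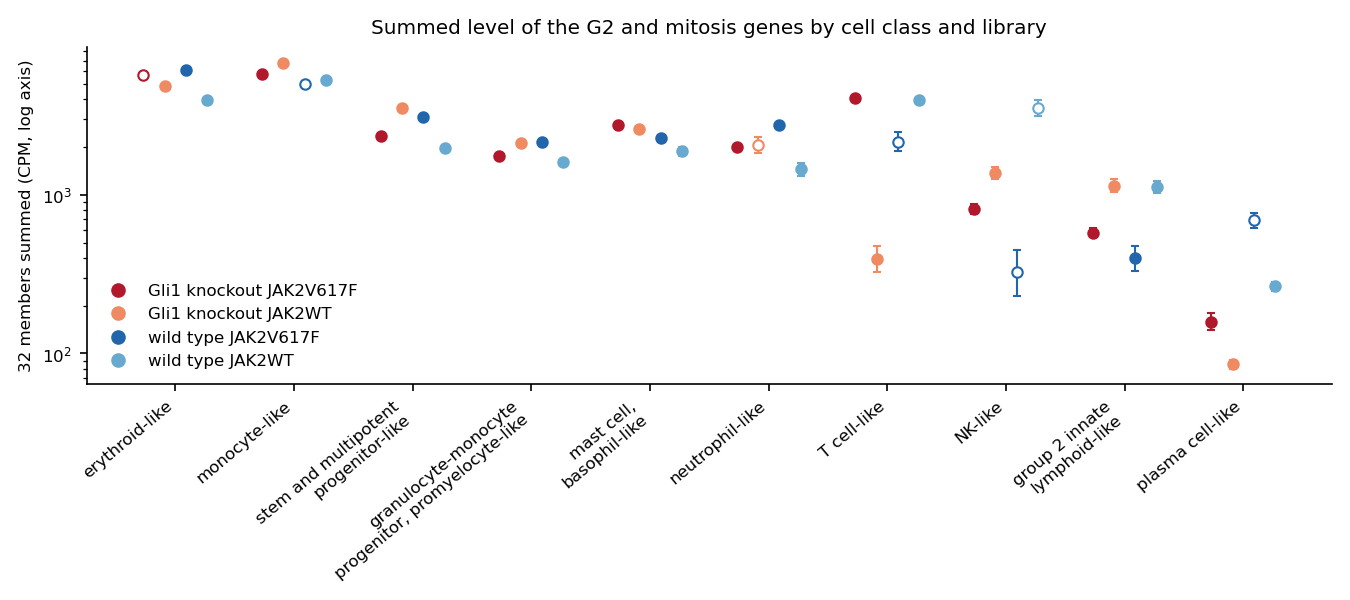
Summed level of the 32 genes in CPM (log axis) for 10 marker-defined classes, 1 point per library with its exact 95% Poisson interval, which covers counting error only; open points are classes of fewer than 50 cells in that library. Erythroid-like and monocyte-like cells stand at 3943 to 6755 CPM in every library, while plasma cell-like cells stand at 85.7 to 689 CPM.

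Single genes followed the classes in much the same way. Mki67 had 644 to 1011 CPM in erythroid-like cells over the 4 libraries, 470.2 to 626 in monocyte-like, 156 to 281 in stem and multipotent progenitor-like, 81.2 to 147 in granulocyte-monocyte progenitor and promyelocyte-like, 153 to 229 in mast cell and basophil-like and 13.6 to 151 in group 2 innate lymphoid-like cells. Top2a had 532 to 611 CPM in erythroid-like, 470.2 to 826 in monocyte-like, 328 to 480.4 in stem and multipotent progenitor-like, 163 to 260.5 in granulocyte-monocyte progenitor and promyelocyte-like, 292 to 368 in mast cell and basophil-like and 30.6 to 194 in group 2 innate lymphoid-like cells. Mki67 exceeded Top2a in erythroid-like cells of all 4 libraries. In stem and multipotent progenitor-like cells of all 4 libraries Top2a exceeded Mki67. Cdk1, the kinase that drives entry into mitosis, had 83.8 to 157 CPM in erythroid-like, 112 to 183 in monocyte-like, 87.1 to 119 in stem and multipotent progenitor-like, 73.5 to 106 in granulocyte-monocyte progenitor and promyelocyte-like, 43.5 to 95.1 in mast cell and basophil-like and 28.1 to 56.5 in group 2 innate lymphoid-like cells. Its partner Ccnb1, cyclin B1, had 60.1 to 131 CPM in erythroid-like, 62.1 to 106 in monocyte-like, 13.8 to 55.9 in stem and multipotent progenitor-like, 21.9 to 50.1 in granulocyte-monocyte progenitor and promyelocyte-like, 20.8 to 51.6 in mast cell and basophil-like and 6.79 to 24.6 in group 2 innate lymphoid-like cells. Cenpf, a kinetochore protein, had 141 to 225 CPM in erythroid-like, 121 to 263 in monocyte-like, 80.5 to 187 in stem and multipotent progenitor-like, 38.2 to 56.9 in granulocyte-monocyte progenitor and promyelocyte-like, 74.6 to 126 in mast cell and basophil-like and 6.79 to 58.9 in group 2 innate lymphoid-like cells. Cdc20, which turns on the anaphase-promoting complex, had 55.2 to 144 CPM in erythroid-like, 69.4 to 143 in monocyte-like, 30.1 to 99.5 in stem and multipotent progenitor-like, 36.6 to 80.6 in granulocyte-monocyte progenitor and promyelocyte-like, 28.4 to 76.4 in mast cell and basophil-like and 10.2 to 31.9 in group 2 innate lymphoid-like cells. Pimreg stood apart from this order, with 1.21 to 3.82 CPM in erythroid-like cells, 30.1 to 50 in monocyte-like and 13.1 to 37.6 in stem and multipotent progenitor-like cells. Pimreg encodes a mitotic regulator that interacts with CALM.

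The genes varied together over 35 pools, each of 1 class and library with at least 50 cells, from 12 classes. Pearson's r of each gene's log2 level with the log2 summed level had a median of 0.936 over the members that reached 50 CPM in 1 pool, with a low of 0.691 for Pimreg and a high of 0.977 for Tpx2. Ckap2 did not reach that level (highest pool 47.3 CPM) and has no value. For the other genes compared the median r was 0.373. These r describe pools that share libraries and depth, and the sum contains each member. The non-members closest to the sum were Dlgap5 (r = 0.964), Incenp (0.958), Smc2 (0.953), Hmgb2 (0.953), Prc1 (0.952), Ube2s (0.947), Hist1h1e (0.943), Knl1 (0.940), Hist1h2ae (0.939) and Spc24 (0.935).

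Classes differ in size between libraries, so levels were compared after giving 4 classes with at least 50 cells in every library the same weights in each. The weights were 47.9% for stem and multipotent progenitor-like cells, 31.4% for granulocyte-monocyte progenitor and promyelocyte-like cells, 12.8% for group 2 innate lymphoid-like cells and 7.93% for mast cell and basophil-like cells. In that order they held 2161, 339, 440 and 216 of 6035 kept cells in Gli1 knockout JAK2V617F. Gli1 knockout JAK2WT had 549, 345, 95 and 51 of 3770. Wild type JAK2V617F had 483, 400, 127 and 141 of 3432, and wild type JAK2WT 248, 413, 151 and 68 of 7196. The standardised levels thus leave out most cells of every library but Gli1 knockout JAK2V617F, and the largest part in wild type JAK2WT. The standardised sum of the 32 genes was 1972 CPM in Gli1 knockout JAK2V617F, 2694 in Gli1 knockout JAK2WT, 2383 in wild type JAK2V617F and 1747 in wild type JAK2WT. In this weighted sum JAK2V617F thus stood with a lower level than JAK2WT in Gli1 knockout and with a higher level in wild type. Single classes did not all follow these directions, as given below. Cells with and without the retrovirus were compared together. In stem and multipotent progenitor-like cells GFP was not detected in 2154 of 2161 of Gli1 knockout JAK2V617F and 549 of 549 of Gli1 knockout JAK2WT. The same held for 480 of 483 of wild type JAK2V617F and 245 of 248 of wild type JAK2WT. A lack of GFP UMIs does not show that a cell lacked the retrovirus. The log2 ratio of JAK2V617F over JAK2WT was -0.45 in Gli1 knockout (95% counting interval -0.47 to -0.43) and 0.45 in wild type (0.42 to 0.48). These intervals cover counting error only, and with 1 library per group the differences could not be set against a spread between mice. The log2 ratio of Gli1 knockout over wild type was -0.27 with JAK2V617F (-0.29 to -0.25) and 0.62 with JAK2WT (0.60 to 0.65). The 4 ratios share libraries and are not independent.

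All 32 genes reached 10 CPM in the higher library of each comparison, the rule for calling a gene measured. Before ratios of single genes were taken, 10 CPM was added to both levels. JAK2V617F over JAK2WT in Gli1 knockout was below 0 for 32 of 32 genes, with a median log2 ratio of -0.34, against -0.00 over all 8054 genes measured. At least 1.5-fold lower were 4 of the 32, where 0.372% of all genes were, and 0 were 1.5-fold higher, where 0.435% were. In wild type the ratio was above 0 for 30 of 32 genes, with a median of 0.41, against 0.06 over all genes. At least 1.5-fold higher were 10 of the 32, where 4.59% of all genes were, and 0 were lower, where 2.98% were. Gli1 knockout over wild type with JAK2V617F was below 0 for 32 of 32 genes, with a median of -0.22, and 0 genes passed 1.5-fold in either direction, where 0.452% of all genes were higher and 0.552% lower. With JAK2WT the same ratio was above 0 for 32 of 32 genes, with a median of 0.55, and 14 were at least 1.5-fold higher, where 2.11% of all genes were, and 0 lower, where 1.17% were. With 50 CPM added in place of 10, the count of 4 became 1, where 0.0993% of all genes were lower, the count of 10 became 1, where 0.891% were higher, and the count of 14 became 2, where 0.292% were higher.

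**Figure D2:**
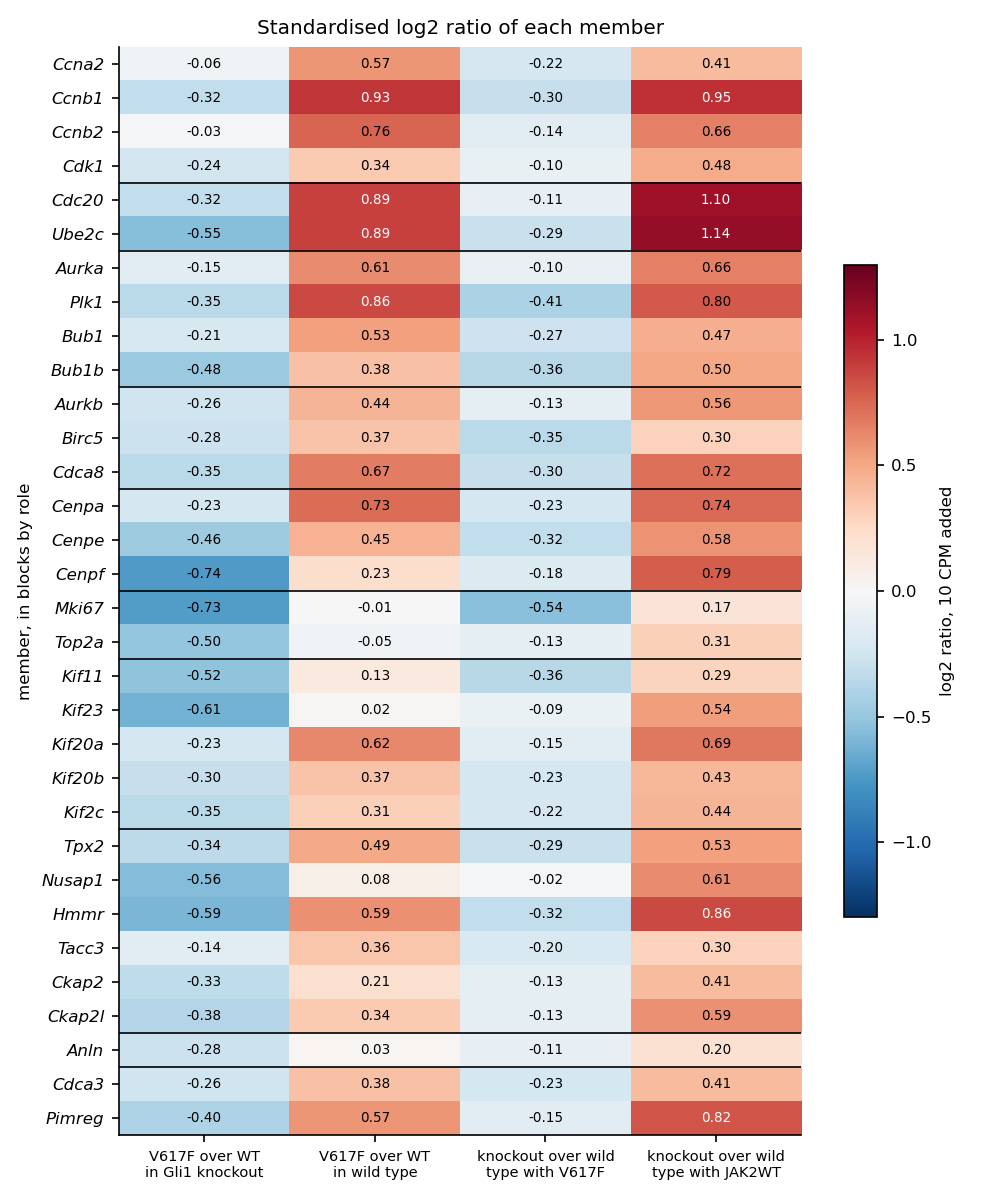
Log2 ratio of the standardised level of each of the 32 genes (rows, in blocks by role) in the 4 comparisons (columns), with 10 CPM added to both levels. The columns for JAK2V617F in Gli1 knockout and for genotype with JAK2V617F are below 0 for every gene, the column for genotype with JAK2WT is above 0 for every gene, and that for JAK2V617F in wild type is above 0 for 30 of 32, with Mki67 at -0.01 and Top2a at -0.05.

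Processing moved the sizes of these ratios. With doublet-scored cells kept, JAK2V617F over JAK2WT was -0.29 in Gli1 knockout and 0.11 in wild type, and Gli1 knockout over wild type was -0.15 with JAK2V617F and 0.25 with JAK2WT. The doublet-scored cells had a summed level of 2775 CPM in Gli1 knockout JAK2V617F (455 cells), 3277 in Gli1 knockout JAK2WT (229 cells), 3892 in wild type JAK2V617F (170 cells) and 5238 in wild type JAK2WT (791 cells). Over all kept cells without class weights, JAK2V617F over JAK2WT in wild type was 0.30, and Gli1 knockout over wild type was -0.60 with JAK2V617F and 0.05 with JAK2WT. Single genes over all kept cells, in which the mix of classes also differs, gave 0 higher and 1 lower of 32 for JAK2V617F over JAK2WT in Gli1 knockout, against 2.41% of all genes at least 1.5-fold higher and 1.08% lower. In wild type 7 were higher and 1 lower, against 11.1% and 9.80%. For Gli1 knockout over wild type 0 were higher and 7 lower with JAK2V617F, against 4.37% and 4.92%, and 1 was higher and 0 lower with JAK2WT, against 1.66% and 4.77%. Coarser clustering (resolution 0.5) gave -0.14 for Gli1 knockout over wild type with JAK2V617F.

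The mitotic cyclins and their kinase start division. Ccna2, Ccnb1, Ccnb2 and Cdk1 summed to 249 CPM in Gli1 knockout JAK2V617F, 281 in Gli1 knockout JAK2WT, 284 in wild type JAK2V617F and 175 in wild type JAK2WT. Wild type JAK2WT stood lowest. In Gli1 knockout the pair Ccnb2 (log2 ratio of JAK2V617F over JAK2WT -0.03, at 77.5 against 79.4 CPM) and Ccna2 (-0.06, at 51.5 against 54.0 CPM) lay closest to no difference of the genes at 50 CPM. In wild type Ccnb2 stood at 86.2 CPM with JAK2V617F, against 46.7 with JAK2WT (0.76), and Ccnb1 at 42.5 against 17.6 CPM (0.93). Cdk1 had smaller ratios, -0.24 in Gli1 knockout and 0.34 in wild type.

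Cdc20 and Ube2c work with the anaphase-promoting complex, which destroys cyclin B and the glue between sister chromosomes. They had a sum of 206 CPM in Gli1 knockout JAK2V617F, 296 in Gli1 knockout JAK2WT, 246 in wild type JAK2V617F and 124 in wild type JAK2WT. Ube2c stood at 146 CPM in Gli1 knockout JAK2V617F, 219 in Gli1 knockout JAK2WT, 182 in wild type JAK2V617F and 93.7 in wild type JAK2WT. The log2 ratio of Gli1 knockout over wild type with JAK2WT was 1.14 for Ube2c and 1.10 for Cdc20 (76.3 against 30.3 CPM), the highest of the genes at 50 CPM. The log2 ratio of JAK2V617F over JAK2WT in wild type was 0.89 for each of the pair, again the highest among genes at 50 CPM. The 16 subunits and regulators of the complex had a median ratio of -0.04 in Gli1 knockout and 0.29 in wild type for JAK2V617F over JAK2WT, and 0.17 for Gli1 knockout over wild type with JAK2WT. At least 1.5-fold higher was 1 of 16 in each of the last 2 of these comparisons, where 4.59% and 2.11% of all genes were. In both it was Fzr1, a regulator and not a subunit. The subunit Anapc5 had 158 CPM in Gli1 knockout JAK2V617F, 169 in Gli1 knockout JAK2WT, 151 in wild type JAK2V617F and 111 in wild type JAK2WT.

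The kinases Aurka and Plk1, which mature the centrosomes and spindle, and the checkpoint proteins Bub1 and Bub1b, which delay anaphase until chromosomes are attached, summed to 97.9 CPM in Gli1 knockout JAK2V617F, 129 in Gli1 knockout JAK2WT, 128 in wild type JAK2V617F and 71.6 in wild type JAK2WT. Plk1 had the widest difference of these in wild type, at 31.9 CPM with JAK2V617F against 13 with JAK2WT (log2 ratio 0.86). Aurkb, Birc5 and Cdca8, parts of the chromosomal passenger complex that corrects attachments, summed to 288 CPM in Gli1 knockout JAK2V617F, 362 in Gli1 knockout JAK2WT, 359 in wild type JAK2V617F and 246 in wild type JAK2WT. Birc5, survivin, differed less than its partners with JAK2WT, at 149.6 CPM in Gli1 knockout against 120.0 in wild type (0.30).

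At the centromere, Cenpa, a histone H3 variant, Cenpe, a kinesin-like motor, and Cenpf summed to 239 CPM in Gli1 knockout JAK2V617F, 337 in Gli1 knockout JAK2WT, 287 in wild type JAK2V617F and 192 in wild type JAK2WT. Cenpf had the lowest of the ratios of JAK2V617F over JAK2WT in Gli1 knockout, -0.74, at 70.9 against 125 CPM. Mki67 and Top2a, both of chromosome structure, followed another pattern. They summed to 371 CPM in Gli1 knockout JAK2V617F, 564 in Gli1 knockout JAK2WT, 456 in wild type JAK2V617F and 468 in wild type JAK2WT. In wild type they were thus nearly level between JAK2V617F and JAK2WT, with Mki67 at 181 against 182 CPM and Top2a at 275 against 285 CPM. In Gli1 knockout Mki67 stood at 121 CPM with JAK2V617F, against 207 with JAK2WT (-0.73). Mki67 also had the lowest ratio of Gli1 knockout over wild type in both comparisons, -0.54 with JAK2V617F and 0.17 with JAK2WT.

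The kinesins Kif11, which pushes spindle poles apart, Kif23, Kif20a and Kif20b, which act in cytokinesis, and Kif2c summed to 158 CPM in Gli1 knockout JAK2V617F, 228 in Gli1 knockout JAK2WT, 194 in wild type JAK2V617F and 154 in wild type JAK2WT. Kif23 followed Cenpf and Mki67 among the lowest ratios in Gli1 knockout, at 29.5 CPM with JAK2V617F against 50.2 with JAK2WT (-0.61). In wild type Kif23 was level, at 32.1 against 31.4 CPM (0.02). The spindle and microtubule proteins Tpx2, Nusap1, Hmmr, Tacc3, Ckap2 and Ckap2l summed to 263 CPM in Gli1 knockout JAK2V617F, 368 in Gli1 knockout JAK2WT, 311 in wild type JAK2V617F and 229 in wild type JAK2WT. Among genes at 50 CPM, Hmmr came after Ube2c and Cdc20 in the ratio of Gli1 knockout over wild type with JAK2WT, 0.86, at 72.9 against 35.6 CPM. Nusap1 had 56.0 CPM in Gli1 knockout JAK2V617F, 87.2 in Gli1 knockout JAK2WT, 57.1 in wild type JAK2V617F and 53.5 in wild type JAK2WT. Tacc3 had 47.3 CPM in Gli1 knockout JAK2V617F, 53.2 in Gli1 knockout JAK2WT, 56.0 in wild type JAK2V617F and 41.4 in wild type JAK2WT. Wild type JAK2WT was lowest for Tacc3, which stabilises spindle microtubules. Anln, anillin, which links actin to the cleavage furrow, had 20.7 CPM in Gli1 knockout JAK2V617F, 27.3 in Gli1 knockout JAK2WT, 23.1 in wild type JAK2V617F and 22.4 in wild type JAK2WT. Cdca3 and Pimreg summed to 79.4 CPM in Gli1 knockout JAK2V617F, 102 in Gli1 knockout JAK2WT, 94.7 in wild type JAK2V617F and 65.3 in wild type JAK2WT. Gli1 knockout JAK2WT stood highest for both of these. Kif11 stood at 42.0 CPM in Gli1 knockout JAK2V617F against 56.9 in wild type JAK2V617F (-0.36) and at 64.7 in Gli1 knockout JAK2WT against 51.0 in wild type JAK2WT (0.29).

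Stem and multipotent progenitor-like cells had wider ratios than the other progenitor class. Their summed level was 2358 CPM in Gli1 knockout JAK2V617F (2161 cells), 3505 in Gli1 knockout JAK2WT (549 cells), 3091 in wild type JAK2V617F (483 cells) and 1983 in wild type JAK2WT (248 cells). JAK2V617F over JAK2WT gave a log2 ratio of -0.57 in Gli1 knockout and 0.64 in wild type. Below 0 were 32 of 32 genes in Gli1 knockout, of which 7 were at least 1.5-fold lower, where 0.446% of all genes were, and 0 higher, where 0.359% were. Above 0 were 32 of 32 in wild type, of which 18 were at least 1.5-fold higher, where 4.20% of all genes were, and 0 lower, where 3.56% were. Ube2c had the highest of these ratios, at 256 CPM with JAK2V617F against 83.1 with JAK2WT (1.52), and Cenpf the lowest in Gli1 knockout, at 99.3 against 187 CPM (-0.85). For Gli1 knockout over wild type the ratio of the sum was -0.39 with JAK2V617F, where 1 of 32 genes was at least 1.5-fold lower, against 0.490% of all genes, and 0 higher, against 0.503%. That gene was Mki67, at 156 CPM in Gli1 knockout against 259.7 in wild type (-0.70). With JAK2WT the ratio of the sum was 0.82, and 22 of 32 genes were at least 1.5-fold higher, against 2.94% of all genes, and 0 lower, against 1.29%. In granulocyte-monocyte progenitor and promyelocyte-like cells the summed level was 1758 CPM in Gli1 knockout JAK2V617F, 2109.8 in Gli1 knockout JAK2WT, 2136 in wild type JAK2V617F and 1612 in wild type JAK2WT. Wild type JAK2WT was again lowest, and the ratios were -0.26 in Gli1 knockout and 0.41 in wild type. Of 31 genes measured there, 1 was at least 1.5-fold lower in Gli1 knockout, where 0.245% of all genes were, and 0 higher, where 0.314% were. In wild type 8 were higher, where 10.5% were, and 0 lower, where 4.38% were. The gene lower in Gli1 knockout was Mki67, at 81.2 CPM with JAK2V617F against 147 with JAK2WT (-0.78). For Gli1 knockout over wild type with JAK2V617F 0 passed in either direction, against 0.893% of all genes higher and 0.756% lower, and with JAK2WT 3 were higher, against 3.39%, and 0 lower, against 1.60%. Pimreg stayed under 10 CPM in all 4 libraries of that class. Mast cell and basophil-like cells had 2738 CPM in Gli1 knockout JAK2V617F (216 cells), 2611 in Gli1 knockout JAK2WT (51 cells), 2290.5 in wild type JAK2V617F (141 cells) and 1878 in wild type JAK2WT (68 cells). In them the ratio was 0.07 in Gli1 knockout, with an interval of -0.00 to 0.14, and 0.29 in wild type, where 5 of 32 genes were at least 1.5-fold higher, against 12.0% of all genes, and 0 lower, against 8.22%. In Gli1 knockout 0 passed in either direction, against 4.93% of all genes higher and 3.77% lower. For Gli1 knockout over wild type with JAK2V617F 3 were higher, against 2.18% of all genes, and 0 lower, against 2.31%, and with JAK2WT 10 were higher, against 11.3%, and 0 lower, against 6.85%. In erythroid-like cells the log2 ratio of JAK2V617F over JAK2WT was 0.23 in Gli1 knockout and 0.64 in wild type. In monocyte-like cells it was -0.22 in Gli1 knockout and -0.08 in wild type.

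To count cells at equal depth, each cell was thinned to 2000 UMIs and cells with at least 5 member UMIs were counted. In stem and multipotent progenitor-like cells these were 499 of 2144 (23.3%) in Gli1 knockout JAK2V617F, 174 of 549 (31.7%) in Gli1 knockout JAK2WT, 154 of 483 (31.9%) in wild type JAK2V617F and 56 of 242 (23.1%) in wild type JAK2WT. Exact binomial intervals ran from 21.5 to 25.1% in Gli1 knockout JAK2V617F, 27.8 to 35.8% in Gli1 knockout JAK2WT, 27.7 to 36.2% in wild type JAK2V617F and 18.0 to 29.0% in wild type JAK2WT. Without thinning, a member UMI was seen in 97.2% of these cells in Gli1 knockout JAK2V617F, 96.5% in Gli1 knockout JAK2WT, 95.4% in wild type JAK2V617F and 95.6% in wild type JAK2WT, against 66.7 to 93.8% of plasma cell-like cells. Cells rich in members, with 10 or more of 2000 UMIs, made up 11.7% in Gli1 knockout JAK2V617F, 21.9% in Gli1 knockout JAK2WT, 18.2% in wild type JAK2V617F and 9.50% in wild type JAK2WT. The share with 4 to 6 UMIs, near the limit of 5, was 11.3% in Gli1 knockout JAK2V617F, 7.29% in Gli1 knockout JAK2WT, 10.6% in wild type JAK2V617F and 12.8% in wild type JAK2WT. In granulocyte-monocyte progenitor and promyelocyte-like cells 5 or more were found in 79 of 337 (23.4%) in Gli1 knockout JAK2V617F, 116 of 342 (33.9%) in Gli1 knockout JAK2WT, 145 of 395 (36.7%) in wild type JAK2V617F and 95 of 412 (23.1%) in wild type JAK2WT. In both classes Gli1 knockout JAK2WT and wild type JAK2V617F had the higher shares. Plasma cell-like cells reached 5 in 2 of 56 (3.57%) in Gli1 knockout JAK2V617F, 1 of 361 (0.277%) in Gli1 knockout JAK2WT, 2 of 32 (6.25%) in wild type JAK2V617F and 4 of 262 (1.53%) in wild type JAK2WT. Their median depths were 30208 UMIs in Gli1 knockout JAK2V617F, 30431 in Gli1 knockout JAK2WT, 10325 in wild type JAK2V617F and 11611 in wild type JAK2WT, and those of the stem and multipotent progenitor-like cells 13892 in Gli1 knockout JAK2V617F, 17105 in Gli1 knockout JAK2WT, 12858 in wild type JAK2V617F and 10222 in wild type JAK2WT.

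**Figure D3:**
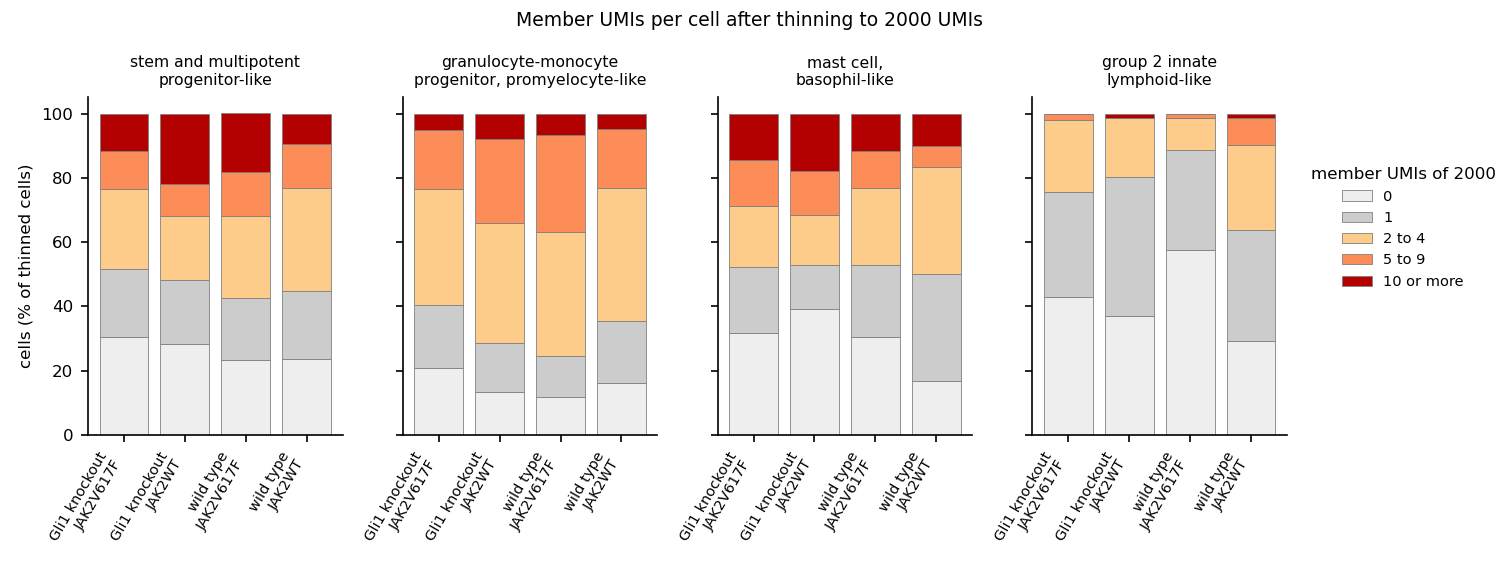
Share of cells (%) by the number of member UMIs among 2000 UMIs, for 4 classes and 4 libraries. In the stem and multipotent progenitor-like class, 21.9% of Gli1 knockout JAK2WT cells and 9.50% of wild type JAK2WT cells had 10 or more, while in group 2 innate lymphoid-like cells at most 1.39% did.

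Genes of S phase, which comes before G2, had standardised medians near 0. Of 50 S phase and DNA replication genes, all measured, the median standardised log2 ratio of JAK2V617F over JAK2WT was 0.02 in Gli1 knockout and 0.04 in wild type, and of Gli1 knockout over wild type -0.05 with JAK2V617F and -0.02 with JAK2WT. The count at least 1.5-fold higher was 2 of 50 for JAK2V617F in wild type, where 4.59% of all genes were. It was 0 in the other 3 comparisons, and 0 were lower in any. The 2 were Rrm2 and the cyclin gene Ccne1 (20.2 against 10.0 CPM). In stem and multipotent progenitor-like cells they summed to 5617 CPM in Gli1 knockout JAK2V617F, 5352 in Gli1 knockout JAK2WT, 5749 in wild type JAK2V617F and 5694 in wild type JAK2WT. In granulocyte-monocyte progenitor and promyelocyte-like cells the S phase medians were further from 0. JAK2V617F over JAK2WT in wild type gave 0.26, beside 0.40 for the G2 and mitosis genes, and genes at least 1.5-fold higher included Rrm2, Ccne1 and Fen1. Gli1 knockout over wild type with JAK2WT gave 0.18, beside 0.33. Fen1 and Rrm2 were the 2 genes at least 1.5-fold higher, where 3.39% of all genes were. The ratio of G2 and mitosis UMIs to S phase UMIs in stem and multipotent progenitor-like cells was 0.420 in Gli1 knockout JAK2V617F, 0.655 in Gli1 knockout JAK2WT, 0.538 in wild type JAK2V617F and 0.348 in wild type JAK2WT. Rrm2, the ribonucleotide reductase subunit, had the highest S phase ratio for JAK2V617F in wild type, at 175 against 93.0 CPM (0.84), followed by the flap nuclease Fen1 (96.3 against 62.1 CPM). The sliding clamp Pcna (86.7 against 126 CPM, -0.50) and Dtl (74.6 against 104 CPM, -0.43) had the lowest. In Gli1 knockout the helicase subunit Mcm4 (136 against 109 CPM) and Rrm2 (143 against 117 CPM) were highest and Rrm1 (106 against 125 CPM) and Clspn (50 against 60.4 CPM) lowest. Between genotypes with JAK2V617F, Ung (70.9 CPM in Gli1 knockout against 59.6 in wild type) and Mcm7 (169 against 154 CPM) were highest and Rrm1 (106 against 128 CPM) and Rrm2 (143 against 175 CPM) lowest. With JAK2WT, Rfc2 (232 CPM in Gli1 knockout against 168 in wild type) and Fen1 (84.8 against 62.1 CPM) were highest and Uhrf1 (73.9 against 95.2 CPM) and Dtl (78.4 against 104 CPM) lowest.

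**Figure D4:**
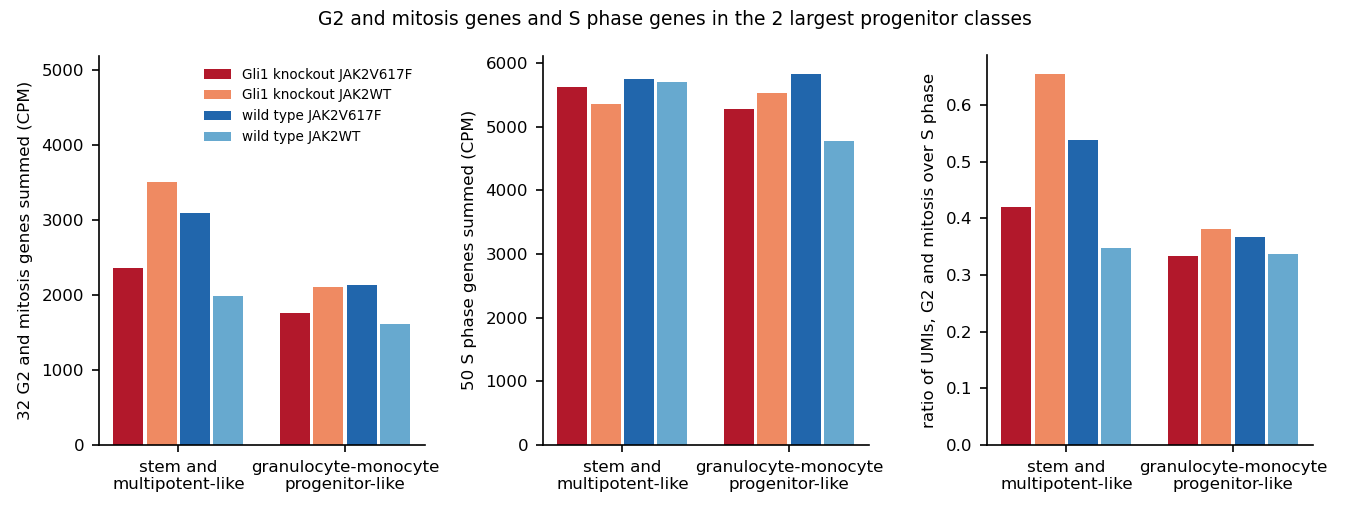
Summed CPM of the 32 G2 and mitosis genes (left), summed CPM of 50 S phase genes (middle) and the ratio of their UMIs (right) in 2 progenitor classes, 1 bar per library. In the stem and multipotent progenitor-like class the S phase sums lie between 5352 and 5749 CPM, while the G2 and mitosis sums lie between 1983 and 3505 CPM.

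Another 54 genes of G2 and mitosis, not among the 32 and also listed with earlier results known, gave smaller ratios in the same directions. Their median standardised log2 ratio of JAK2V617F over JAK2WT was -0.27 in Gli1 knockout (50 measured) and 0.11 in wild type (47 measured), and of Gli1 knockout over wild type -0.15 with JAK2V617F and 0.26 with JAK2WT. At least 1.5-fold higher was 1 of 47 for JAK2V617F in wild type, where 4.59% of all genes were. For Gli1 knockout with JAK2WT it was 4 of 50, where 2.11% of all genes were. In the other 2 comparisons 0 were higher, and 0 were lower in any. Tubb4b, a beta-tubulin, had 440.0 CPM in wild type JAK2V617F against 223 in wild type JAK2WT (0.95). Prc1, which bundles midzone microtubules, had 70.8 CPM in Gli1 knockout JAK2V617F against 105 in Gli1 knockout JAK2WT (-0.51), and Hjurp, the chaperone of Cenpa, had 67.7 against 101 CPM (-0.51). The highest there were Cenpw (83.2 against 77.1 CPM, 0.10) and Cenpq (57.2 against 56.1 CPM, 0.02), both kinetochore proteins. In wild type Incenp, a partner of Aurora B kinase, followed Tubb4b at 83.1 CPM with JAK2V617F against 55.2 with JAK2WT (0.51), and Cenpw (94.6 against 107 CPM, -0.16) and the kinesin Kif15 (57.5 against 66.2 CPM, -0.17) were lowest. Between genotypes with JAK2V617F, Ncapd3, a condensin subunit (69.8 CPM in Gli1 knockout against 68.1 in wild type, 0.03), and Cenpq (57.2 CPM in both, -0.00) were highest, and Kif15 (44.8 against 57.5 CPM, -0.30) and Knl1, a kinetochore scaffold (59.5 against 75.8 CPM, -0.30), lowest. With JAK2WT, the 4 genes at least 1.5-fold higher in Gli1 knockout were Tubb4b (403 CPM against 223 in wild type, 0.83), Prc1 (105 against 54.9 CPM, 0.82), Nuf2 (32.3 against 16.3 CPM, 0.69) and Psrc1 (12.4 against 4.46 CPM, 0.63). The lowest were Hmgb2, a chromatin protein (1276 against 1350.2 CPM, -0.08), and Cenpw (77.1 against 107 CPM, -0.43).

 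The 7 genes listed for the MMB complex and FOXM1 had median ratios of -0.09 in Gli1 knockout and -0.01 in wild type for JAK2V617F over JAK2WT, and of -0.04 with JAK2V617F and 0.01 with JAK2WT for Gli1 knockout over wild type, with 5 measured and 0 past 1.5-fold. Their only member at 50 CPM, Rbbp4, a histone-binding protein, had 298 CPM in Gli1 knockout JAK2V617F, 245 in Gli1 knockout JAK2WT, 266 in wild type JAK2V617F and 179.9 in wild type JAK2WT. Of 8 E2F and pocket protein genes 6 were measured, with median ratios of 0.02 in Gli1 knockout and -0.22 in wild type for JAK2V617F over JAK2WT, and of 0.01 with JAK2V617F and -0.16 with JAK2WT for Gli1 knockout over wild type. E2f4, a repressor of the family, had 80.3 CPM in Gli1 knockout JAK2V617F, 64.5 in Gli1 knockout JAK2WT, 77.9 in wild type JAK2V617F and 39.9 in wild type JAK2WT. It had a log2 ratio of 0.82 for JAK2V617F over JAK2WT in wild type. E2f4 was the 1 gene of that list past 1.5-fold there, where 4.59% of all genes were higher. Of 6 genes that control entry through CDK1, 4 or 5 were measured, and of 5 CDK inhibitors 4 were, and 0 passed 1.5-fold in any comparison. For JAK2V617F over JAK2WT the CDK1 entry genes had medians of -0.21 in Gli1 knockout and -0.17 in wild type, and the inhibitors -0.02 in Gli1 knockout and 0.28 in wild type. For Gli1 knockout over wild type the CDK1 entry genes had -0.01 with JAK2V617F and 0.00 with JAK2WT, and the inhibitors -0.18 with JAK2V617F and 0.08 with JAK2WT. Ensa, which restrains a phosphatase at mitotic entry, had 57.9 CPM in Gli1 knockout JAK2V617F, 58.4 in Gli1 knockout JAK2WT, 56.0 in wild type JAK2V617F and 54.8 in wild type JAK2WT. Cdc25a, a phosphatase that activates cyclin-dependent kinases, had 43.7 CPM in wild type JAK2V617F against 54.6 in wild type JAK2WT (-0.27), and 44.8 in Gli1 knockout JAK2WT against the same 54.6 (-0.24). Cdkn1b, an inhibitor of cyclin-dependent kinases, had 72.3 CPM in Gli1 knockout JAK2V617F, 74.6 in Gli1 knockout JAK2WT, 80.6 in wild type JAK2V617F and 71.3 in wild type JAK2WT. The 16 subunits and regulators of the anaphase-promoting complex, all measured, had medians of -0.04 in Gli1 knockout and 0.29 in wild type for JAK2V617F over JAK2WT, and of -0.05 with JAK2V617F and 0.17 with JAK2WT for Gli1 knockout over wild type. Fzr1, which takes over from Cdc20 late in mitosis, was the 1 gene at least 1.5-fold higher for JAK2V617F in wild type (32.7 against 16.4 CPM, 0.69) and for Gli1 knockout with JAK2WT (0.67). Of all genes 4.59% and 2.11% were higher in these 2 comparisons. In no comparison was a gene of this list at least 1.5-fold lower. Anapc5 had 158 CPM in Gli1 knockout JAK2V617F, 169 in Gli1 knockout JAK2WT, 151 in wild type JAK2V617F and 111 in wild type JAK2WT.

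Group 2 innate lymphoid-like cells, tissue lymphocytes that make type 2 cytokines, were few and mostly low in these genes. Their defining markers were present in every library. Gata3 had 951 CPM in Gli1 knockout JAK2V617F, 845 in Gli1 knockout JAK2WT, 927 in wild type JAK2V617F and 801 in wild type JAK2WT. Il1rl1, a cytokine receptor of these cells, had 393 CPM in Gli1 knockout JAK2V617F, 317 in Gli1 knockout JAK2WT, 373 in wild type JAK2V617F and 506 in wild type JAK2WT. The T cell marker Cd3e had 0 to 12.0 CPM. The 32 genes summed to 577 CPM in Gli1 knockout JAK2V617F (440 cells, 843 member UMIs), 1144 in Gli1 knockout JAK2WT (95 cells, 466 UMIs), 397 in wild type JAK2V617F (127 cells, 117 UMIs) and 1121 in wild type JAK2WT (151 cells, 467 UMIs). The log2 ratio of JAK2V617F over JAK2WT was -0.99 in Gli1 knockout (-1.15 to -0.82) and -1.50 in wild type (-1.80 to -1.20).

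In Gli1 knockout the ratio turned on 1 cell. That Gli1 knockout JAK2WT cell held 289 of the 466 member UMIs (62.0%), from 29 of the 32 genes, in 17335 UMIs. The median of the class in that library was 4254 UMIs, and whether the cell was a missed doublet was not tested. Without the richest cell of each library, a comparison chosen after the data were seen, the level was 573 CPM in Gli1 knockout JAK2V617F, 454 in Gli1 knockout JAK2WT, 369.7 in wild type JAK2V617F and 1005 in wild type JAK2WT. The log2 ratio of JAK2V617F over JAK2WT then was 0.34 in Gli1 knockout, a turn of direction, and -1.44 in wild type. With cells thinned to 2000 UMIs it was -0.43 in Gli1 knockout. In wild type JAK2WT the richest cell held 11.3% of the member UMIs and the top 3 cells held 27.0%. NK-like cells showed the same dependence on single cells. They had 819 CPM in Gli1 knockout JAK2V617F, 1367 in Gli1 knockout JAK2WT, 325 in wild type JAK2V617F and 3542 in wild type JAK2WT. Without the richest cell the level was 708 CPM in Gli1 knockout JAK2V617F, 400.3 in Gli1 knockout JAK2WT, 296 in wild type JAK2V617F and 642 in wild type JAK2WT. In wild type JAK2WT that cell was 1 of 19 and held 84.8% of the UMIs.

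**Figure D5:**
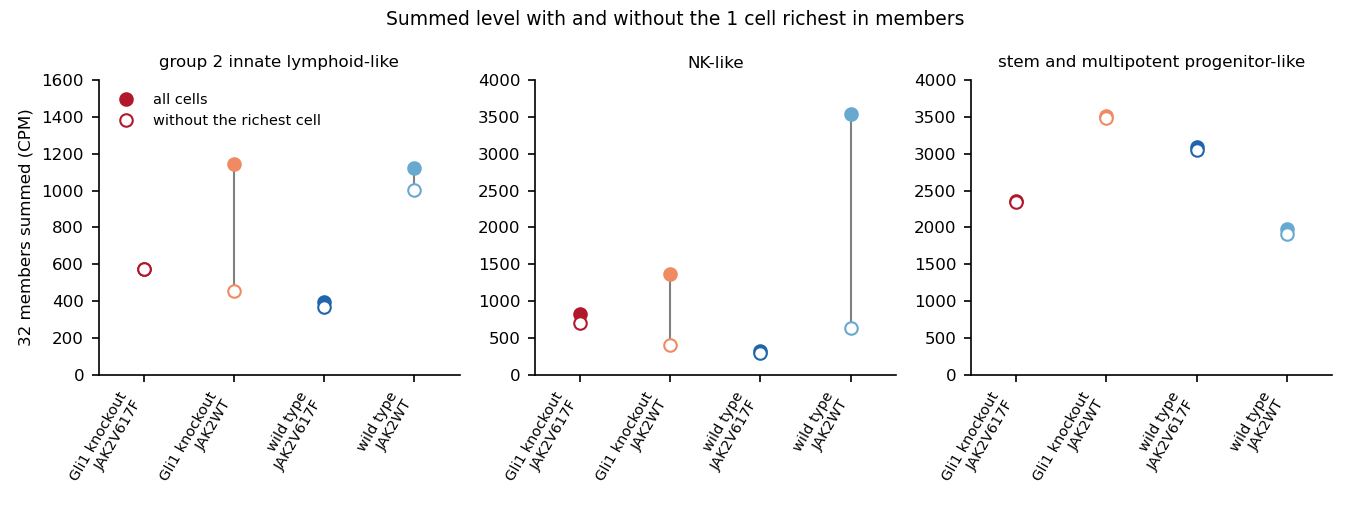
Summed level of the 32 genes (CPM) with all cells (filled) and without the 1 cell richest in members (open), by library in 3 classes. Leaving out that cell takes group 2 innate lymphoid-like cells of Gli1 knockout JAK2WT to 454 CPM, against 1144 CPM with all cells, and moves stem and multipotent progenitor-like cells little.

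After thinning to 2000 UMIs, 6 of 313 group 2 innate lymphoid-like cells (1.92%) of Gli1 knockout JAK2V617F had at least 5 member UMIs, as did 1 of 81 (1.23%) in Gli1 knockout JAK2WT, 1 of 80 (1.25%) in wild type JAK2V617F and 7 of 72 (9.72%) in wild type JAK2WT. Exact intervals were 0.707 to 4.13% in Gli1 knockout JAK2V617F, 0.0313 to 6.69% in Gli1 knockout JAK2WT, 0.0316 to 6.77% in wild type JAK2V617F and 4.00 to 19.0% in wild type JAK2WT. The shares of plasma cell-like cells were 3.57% in Gli1 knockout JAK2V617F, 0.277% in Gli1 knockout JAK2WT, 6.25% in wild type JAK2V617F and 1.53% in wild type JAK2WT. The plasma cell-like shares with JAK2V617F rest on few cells. Immunoglobulin transcripts take part of the 2000 UMIs of plasma cell-like cells, so their shares set no floor for other classes. The group 2 innate lymphoid-like share lay below the plasma cell-like share in both JAK2V617F libraries and above it in both JAK2WT libraries. How much of the group 2 innate lymphoid-like share is background was not tested. In Gli1 knockout JAK2WT that share was 1 cell, the rich one, with 37 member UMIs of 19 genes after thinning. With limits of 1000 genes, 2000 UMIs and 5% mitochondrial UMIs the wild type JAK2WT share was 1.52%. The cells left out as shallow numbered 127 of 440 in Gli1 knockout JAK2V617F, 14 of 95 in Gli1 knockout JAK2WT, 47 of 127 in wild type JAK2V617F and 79 of 151 in wild type JAK2WT. Markers of another class moved with the result. The 7 granulocyte-monocyte progenitor markers, all detected, summed to 2596 CPM in the group 2 innate lymphoid-like cells of Gli1 knockout JAK2V617F, 1861 in Gli1 knockout JAK2WT, 1636 in wild type JAK2V617F and 4199 in wild type JAK2WT. Elane, a neutrophil granule protease, had there 682 CPM in Gli1 knockout JAK2V617F, 555 in Gli1 knockout JAK2WT, 336 in wild type JAK2V617F and 1356 in wild type JAK2WT. The part of these transcripts in the wild type difference was not tested.

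Among the 32 genes in these cells, 27 were measured for JAK2V617F over JAK2WT in Gli1 knockout and 28 in wild type, so not all members are in the counts. A gene could be measured through the library with the higher level alone, as could any gene in the shares beside them. These counts are therefore a description and no support for a difference. At least 1.5-fold lower were 18 of 27 in Gli1 knockout, where 9.18% of all genes were, and 19 of 28 in wild type, where 19.4% were, and 0 were higher, where 6.77% and 16.8% were. In Gli1 knockout the lowest ratios at 50 CPM were those of Cenpf (19.2 against 58.9 CPM, -1.24), Ube2c (42.4 against 110.5 CPM, -1.20), Cdca8 (28.1 against 71.2 CPM, -1.09) and Top2a (60.2 against 135 CPM, -1.05). Those values include the single rich cell. The highest were Birc5 (43.8 against 58.9 CPM, -0.36), Cenpa (45.9 against 76.1 CPM, -0.62), Kif20b (26.0 against 51.6 CPM, -0.77) and Cdk1 (28.1 against 56.5 CPM, -0.80). In wild type Mki67 had 4 UMIs with JAK2V617F (13.6 CPM) against 63 with JAK2WT (151 CPM), a log2 ratio of -2.77. Top2a had 9 UMIs (30.6 CPM) against 81 (194 CPM), -2.33, and Cenpf had 2 UMIs (6.79 CPM) against 22 (52.8 CPM), -1.90. Kif20b followed at 20.4 against 50.4 CPM (-0.99), and Cenpa (-0.46), Ube2c (-0.56) and Birc5 (-0.68) had the highest ratios. Between genotypes the log2 ratio of the sum was 0.54 with JAK2V617F (0.26 to 0.83) and 0.03 with JAK2WT (-0.16 to 0.22). With JAK2V617F, 9 of 22 genes measured were at least 1.5-fold higher in Gli1 knockout, where 9.27% of all genes were. Most of the 9 were under 10 CPM in wild type, among them Nusap1 (14.4 against 0 CPM) and Aurka (11.0 against 0 CPM). Top2a stood at 60.2 CPM in Gli1 knockout against 30.6 in wild type (0.79). With JAK2WT, 5 of 28 were higher, where 13.7% of all genes were, and 3 were lower, where 16.2% were. Cdk1 (56.5 against 31.2 CPM, 0.69), Ube2c (0.60), Cdca8 (0.55) and Cenpa (0.51) were highest in that comparison, and Mki67 (66.3 against 151 CPM, -1.08), Top2a (-0.49), Birc5 (-0.33) and Kif20b (0.03) lowest. The Gli1 knockout JAK2WT values again include the rich cell. The S phase genes in these cells had a median ratio for JAK2V617F over JAK2WT of 0.29 in Gli1 knockout and -0.69 in wild type. In Gli1 knockout 10 of 41 measured were at least 1.5-fold higher with JAK2V617F, where 6.77% of all genes were. In wild type 24 of 45 were lower, where 19.4% of all genes were. For Gli1 knockout over wild type the S phase median was 0.31 with JAK2V617F and -0.57 with JAK2WT. With JAK2V617F 11 of 42 were higher, where 9.27% of all genes were. With JAK2WT 22 of 45 were lower, where 16.2% of all genes were. The part of progenitor transcripts in these S phase counts was not tested.

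T cell-like cells had 4057 CPM in Gli1 knockout JAK2V617F (117 cells), 395 in Gli1 knockout JAK2WT (59 cells), 2158 in wild type JAK2V617F (33 cells) and 3978 in wild type JAK2WT (1330 cells). They came from 3 clusters. The one with Arpp21, Rag1 and Dntt among its leading genes held 588 cells of wild type JAK2WT against 3 of Gli1 knockout JAK2V617F, 2 of Gli1 knockout JAK2WT and 5 of wild type JAK2V617F, and another, led by Ms4a4b and Txk, held 385 cells. Within the cluster led by Trac, Ccl5 and Gzma the level was 4705 CPM in Gli1 knockout JAK2V617F (64 cells), 344 in Gli1 knockout JAK2WT (52 cells), 602 in wild type JAK2V617F (19 cells) and 999 in wild type JAK2WT (421 cells). The richest 3 of the 64 cells held 53.1% of the UMIs, and without them the level in Gli1 knockout JAK2V617F was 2495 CPM.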

How the data were processed

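The deposited matrices hold unnormalised counts of UMIs for every gene in every barcode, written by Cell Ranger 4.0.0 per the file headers. Seurat 4.0.4 and the build mm10 are named in the submitters' processing notes with no role; the authors' further steps are not given in the sources used here. Hashing tags that tie cells to mice were not used here. Barcodes with at least 500 genes, 1000 UMIs and less than 10% mitochondrial UMIs were kept, and the barcodes with the highest simulated-doublet scores were removed at an assumed rate of 0.8% per 1000 barcodes (455 in Gli1 knockout JAK2V617F, 229 in Gli1 knockout JAK2WT, 170 in wild type JAK2V617F and 791 in wild type JAK2WT). Cells were clustered on 2000 variable genes without cell cycle, histone and sex-linked genes (30 principal components, 15 neighbours, leidenalg 0.10.2 at resolution 1.0) and named from 18 marker lists; the group 2 innate lymphoid name also needed 50 CPM of Il1rl1, a rule set after the clusters were seen. UMIs were summed per class and library and given as CPM. With 1 library per group no test was run, and intervals (exact Poisson or binomial, 95%) cover counting error only. Ratio scripts were tested on simulated data. The genes and lists were chosen with earlier results of these data known. Any of the 32 genes could be named with its level; ratios are given for the 3 highest and 3 lowest of each comparison at 50 CPM (4 and 4 in group 2 innate lymphoid-like cells), 2 and 2 of each other list (of the anaphase-promoting complex list, Anapc5 only), and 6 fixed genes. Nuf2, Psrc1, Ccne1 and Fzr1 were named after their values were seen. Alternatives are in the closing section.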

Additional observations from a re-analysis of the deposited data

Results flagged for a closer look

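JAK2V617F over JAK2WT gave a log2 ratio below 0 in one genotype and above 0 in the other, with intervals clear of 0, for 4 of the sums of the 32 genes examined for this. The difference between the log2 ratios, Gli1 knockout minus wild type, was -0.90 for the standardised sum, -1.21 in stem and multipotent progenitor-like cells and -0.67 in granulocyte-monocyte progenitor and promyelocyte-like cells. In T cell-like cells it was 4.24, a value that joins clusters held in unlike numbers by the libraries. In the cluster led by Trac, Ccl5 and Gzma, the richest 3 of the 64 cells of Gli1 knockout JAK2V617F held 53.1% of the member UMIs. The sum over all kept cells, not among those examined, also had opposite signs, at -0.34 in Gli1 knockout and 0.30 in wild type, and so did neutrophil-like cells, at -0.06 in Gli1 knockout, with an interval that spans 0, and 0.94 in wild type. With 1 library per group these differences were not tested.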

How the results depend on the processing

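All 44 alternatives of the 4 standardised ratios kept their direction. The ratios are called A (JAK2V617F over JAK2WT in Gli1 knockout), B (the same in wild type), C (Gli1 knockout over wild type with JAK2V617F) and D (the same with JAK2WT), and are given in that order. Without doublet removal they were -0.29, 0.11, -0.15 and 0.25. Over all kept cells they were -0.34, 0.30, -0.60 and 0.05. At resolution 0.5 they were -0.41, 0.32, -0.14 and 0.58, and with cell cycle genes in the clustering A to C were -0.43, 0.39 and -0.22; both settings lacked the mast cell and basophil class. With 10 CPM added per gene they were -0.40, 0.39, -0.24 and 0.54, and without group 2 innate lymphoid and NK cells -0.42, 0.54, -0.30 and 0.67. Those that moved beyond counting error under other settings were -0.39 and -0.21 (A and C) with the stricter cell filter, -0.48 and 0.40 (A and B) with totals free of mitochondrial, ribosomal, globin and immunoglobulin genes, -0.39, 0.61 and 0.73 (A, B and D) without Mki67, Top2a and Cenpf, -0.49, -0.37 and 0.56 (A, C and D) with thinned cells, and -0.39 and 0.48 (A and B) without the richest cell, a setting chosen after seeing the data.

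In group 2 innate lymphoid-like cells JAK2V617F over JAK2WT in Gli1 knockout was -1.17 with the stricter filter, -0.72 without doublet removal, -0.71 with 10 CPM added, -0.43 thinned and 0.34 without the richest cell. In wild type it was -1.08, -1.01 and -1.06 with the stricter filter, 10 CPM added and without Mki67, Top2a and Cenpf. The cause of these shifts was not tested. The count of 4 genes lower in Gli1 knockout became 7 with 1 CPM added and 1 with 50 CPM; the counts of 10 and 14 became 1 and 2 with 50 CPM. No paired analysis was possible because each group is 1 library. Depth limits wild type JAK2WT most.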
